A study of Mus musculus with 20 samples.

Results

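The 8 genes Prph, Nefl, Nefm, Nefh, Ina, Vim, Nes and Gfap encode intermediate filament proteins of neurons, glia and neural progenitors, and they were followed through every group of a mouse MYCN transgene series. All probe sets annotated to these symbols were taken, which gave 20 probe sets for 8 of the 18193 genes on the array. Affymetrix Mouse Genome 430 2.0 arrays had been hybridised with RNA of 20 samples, 1 array each. The wild-type groups came from 129+Ter/SvJcl mice and comprised 4 ganglion samples and 2 neurosphere cultures. Mice homozygous for the MYCN transgene gave 2 ganglion samples, 4 tumors and, with a knockout of Mdk (midkine, a heparin-binding growth factor) in addition, 2 tumors. Hemizygous mice gave 4 tumors and 2 tumorsphere cultures, and all transgenic mice had a mixed 129+Ter/SvJcl background. In contrasts with wild-type samples, transgene and background therefore cannot be told apart. The labels give no age, do not say which ganglia were dissected or which tissue the neurospheres were grown from, and do not name the promoter of the transgene. Neurospheres and tumorspheres are floating cultures of dissociated neural or tumor cells.

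Intermediate filaments are rope-like polymers that give cells mechanical strength, and which subunit a cell makes changes as it matures. Neural progenitors build them from vimentin and nestin, astrocytes add the glial fibrillary acidic protein (Gfap), and neurons replace these with the light, medium and heavy neurofilament subunits (Nefl, Nefm, Nefh) and alpha-internexin (Ina). Peripherin (Prph) joins the neurofilaments in peripheral neurons, including those of sympathetic ganglia, the tissue from which neuroblastoma arises. MYCN is a MYC family transcription factor, and extra copies of its gene mark aggressive neuroblastoma.

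The gene starts of 3 members that took different courses in the tumors are shown first: Prph and Vim were lower, and Ina was higher, in tumors than in wild-type ganglia. Each window holds 250 bases before and 50 after the start in the RefSeq table of build GRCm38.p6, and that table held windows for 5 of the 8 members (Prph, Ina, Vim, Nes and Gfap). Windows on the plus strand at chr15:99054924-99055223 (Prph), chr19:47014431-47014730 (Ina) and chr2:13574061-13574360 (Vim) follow, with capitals for the letters TATAAA or GGGCGG on either strand.
Prph: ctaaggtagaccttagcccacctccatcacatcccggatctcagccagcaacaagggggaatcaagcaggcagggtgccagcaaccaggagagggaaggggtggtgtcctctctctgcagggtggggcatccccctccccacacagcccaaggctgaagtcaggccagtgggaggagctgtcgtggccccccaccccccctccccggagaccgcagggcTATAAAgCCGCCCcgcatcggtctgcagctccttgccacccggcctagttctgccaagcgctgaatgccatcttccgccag
Ina: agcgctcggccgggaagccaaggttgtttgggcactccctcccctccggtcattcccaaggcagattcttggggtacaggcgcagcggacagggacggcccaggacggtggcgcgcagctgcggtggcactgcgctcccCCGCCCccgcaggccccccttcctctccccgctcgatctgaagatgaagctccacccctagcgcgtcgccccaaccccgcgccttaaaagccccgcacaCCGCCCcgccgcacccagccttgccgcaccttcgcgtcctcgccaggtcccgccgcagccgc
Vim: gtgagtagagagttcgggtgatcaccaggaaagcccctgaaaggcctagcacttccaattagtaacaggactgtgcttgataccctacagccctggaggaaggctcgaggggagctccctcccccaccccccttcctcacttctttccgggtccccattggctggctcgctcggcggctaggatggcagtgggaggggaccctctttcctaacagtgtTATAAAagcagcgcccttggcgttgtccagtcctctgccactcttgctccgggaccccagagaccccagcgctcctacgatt
TATAAA, the core of a TATA box, began 31 bases before the start of Prph and 32 bases before that of Vim. It was not matched in the windows of Ina, Nes and Gfap. It occurred in 13.6% of all 32851 windows. GGGCGG, a GC box read here as CCGCCC on the minus strand, was found once in the Prph window. There it lay at 24 bases before the start, next to the TATA letters without overlap. It was also at 111 and 12 bases before the start of Ina and at 73 and 62 bases before that of Nes. The Vim and Gfap windows did not hold it, and 35.7% of all windows did. Nes, lower in homozygous tumors by its brightest probe set, thus shared the letters of Ina and not those of Vim. The letters CACGTG, the E-box that MYC family proteins can bind, were searched too. They were in none of the 5 member windows and in 7.15% of all windows.

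Values are the deposited intensities, and changes are differences of log2(intensity + 16), which understate the change of dim genes. A member was called when its adjusted p from limma over all 15139 genes tested was under 0.05. Each gene is represented by its brightest probe set over the 20 arrays. All 8 representative probe sets passed the filter, which asks for a value above the 40th percentile of the array (an intensity of 8.58 to 15.8) on at least 2 arrays, and 16 of the 20 member probe sets did. A member such as Prph, above that level on 14 arrays, passed through the groups where it is high. Nothing in the labels ties the arrays of a group to different animals or cultures. The p-values therefore rest on a spread among arrays that may in part be technical, and the number of arrays limits the precision. Mdk read 42.6 and 35.5 in the knockout tumors and 268 to 297 in homozygous tumors, and where its probe set lies relative to the deletion is not known here. All 8 measured sympathetic markers were above the 40th percentile in the wild-type ganglia, and all 6 neural progenitor markers in the neurospheres. The wild-type ganglia split into a pair, 1 and 2, with skeletal muscle actin Acta1 at 1042 and 529, and a pair, 3 and 4, with 16 and 7.10. The same pairs differed in Xist, the RNA of the inactive X chromosome in females, at 2411 and 2481 against 44.0 and 30.7, and both homozygous ganglia read high, at 2707 and 2543. Muscle RNA, Xist and any other difference between the pairs cannot be told apart. Results of the members' brightest probe sets against wild-type ganglia are therefore given with each pair where a call changes. Their other probe sets, the marker lists and the other genes named below were not examined by pair. Homozygous tumors 1 and 2 also exceeded 3 and 4 in Prph (223 and 179 against 38.3 and 65.1) and Vim (1159 and 939 against 503 and 600). Neither Acta1 nor Xist split these tumors so, and hemizygous tumors went the other way in Vim (828 and 698 against 999 and 1678). The cause was not tested. Acta1 was over 100 in 4 more arrays: tumor 2 of the homozygous, tumor 2 of the knockout and tumor 3 of the hemizygous mice, and homozygous ganglion 2. For the beta-actin control, the signal near the 3' end over that near the 5' end, which rises as RNA gets shorter, was 4.36 to 9.14 in wild-type ganglia, 4.02 and 4.68 in homozygous ganglia, 2.44 to 2.81 in homozygous and 1.96 to 2.69 in hemizygous tumors. It was 7.77 and 3.78 in neurospheres and 2.64 and 2.34 in tumorspheres. This ratio moved with tissue type, and its part in the results was not tested.

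**Figure D1:**
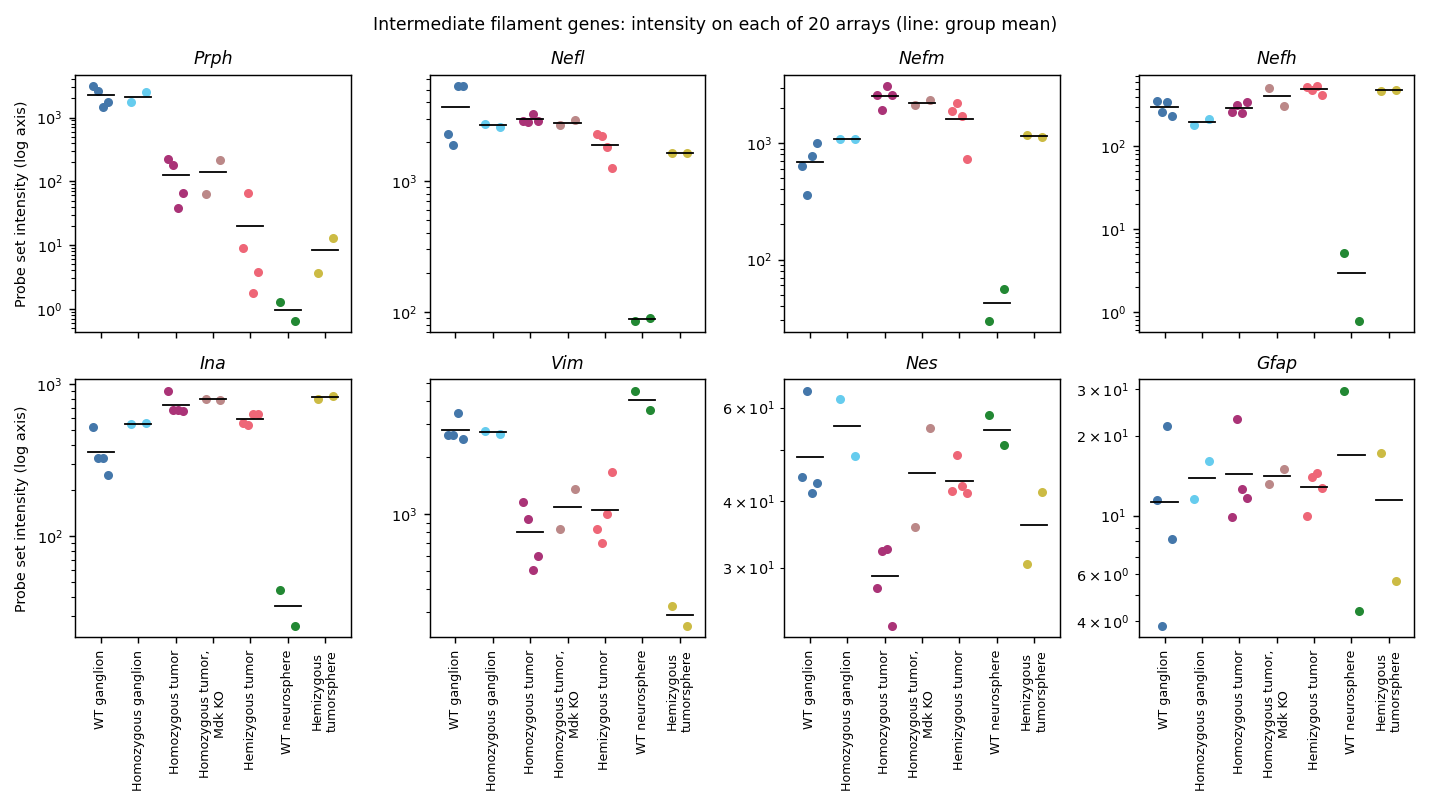
Intensity of the representative probe set of each of the 8 genes (log axis) on each of the 20 arrays, by group, with a line at the group mean. Prph lies between 1440 and 3099 in all 6 ganglion samples and at 223 or below elsewhere, whereas the 3 neurofilament genes and Ina are low in the 2 neurosphere arrays alone, and Vim is lowest in the 2 tumorsphere arrays.

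Peripherin fell in both kinds of tumor and lay below the 40th percentile in neurospheres. Prph read 3099, 2640, 1440 and 1757 in the 4 wild-type ganglia and 1743 and 2491 in the homozygous ganglia. In homozygous tumors it read 223, 179, 38.3 and 65.1, in knockout tumors 62.9 and 220, and in hemizygous tumors 8.88, 66, 1.78 and 3.74. The ganglia of both genotypes thus overlapped, all tumors lay below all ganglia, and 3 of the 4 hemizygous tumors were below the 40th percentile of their array. The 2 neurosphere arrays gave 1.28 and 0.653 and the tumorspheres 3.59 and 13.2.

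Against wild-type ganglia, Prph fell by 4.17 on the log2 scale in homozygous tumors (SE 0.50, adjusted p = 1.86e-06), where the mean intensity was 126 ± 88.5 (SD, n = 4) against 2234 ± 768 (SD, n = 4), or 17.7-fold lower. In hemizygous tumors it fell by 6.21 (SE 0.50, adjusted p = 1.03e-08), with 3 of its 4 values below the 40th percentile. Over the alternatives the change ran from -4.59 to -1.69 in homozygous and from -7.79 to -2.13 in hemizygous tumors. The smallest change in each came with the mean of all Prph probe sets, dim ones included. In bulk samples, fewer cells of a type and less RNA per cell cannot be told apart. Summed sympathetic markers (8 genes) were 13280 to 28150 in wild-type ganglia, 4065 to 5566 in homozygous and 2161 to 3948 in hemizygous tumors. In each kind of tumor 1 of the 8 rose, and 5 fell in homozygous and 6 in hemizygous tumors. Summed neuron markers (10 genes) were 12140 to 24180, 7729 to 8879 and 4600 to 5463 in the same groups. Wild-type ganglia 1 and 2 gave 14950 and 12140 of this sum, and 3 and 4 gave 24180 and 20860. Of the 10 neuron genes 4 fell in homozygous and 6 in hemizygous tumors, and 0 rose. Of all genes, 49.9% and 52.7% were called there. The part of these cells in the values of the neuronal members was not tested. For Prph, the homozygous ganglia did not differ from wild-type ganglia beyond the spread (log2 -0.03, interval -1.31 to 1.24, adjusted p = 0.981). Homozygous tumors were below homozygous ganglia as well (log2 -4.13, adjusted p = 0.000177). Between tumors, Prph was lower in hemizygous than in homozygous ones (log2 -2.04, SE 0.50, adjusted p = 0.0208). That call rests on few arrays, because hemizygous tumor 2 (66) lay within the homozygous range and the call was lost in 5 of 8 fits that left out 1 tumor. These were without homozygous tumor 1 (log2 -1.71, adjusted p = 0.0856) or 2 (-1.80, 0.0765) and without hemizygous tumor 1 (-1.96, 0.052), 3 (-1.80, 0.0619) or 4 (-1.85, 0.0744). It was also lost with a pseudocount of 64 (-1.11, adjusted p = 0.0673), with the mean of all Prph probe sets (-0.44, adjusted p = 0.128) and without the arrays with Acta1 over 100 (-1.57, adjusted p = 0.122).

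A dimmer Prph probe set followed the same course between ganglia and tumors but not between tumors. It read 103, 74.1, 72.4 and 55.5 in wild-type ganglia, 3.92 to 7.90 in homozygous tumors and 8.73 to 14.4 in hemizygous tumors. Its log2 change against wild-type ganglia was -2.09 in homozygous (adjusted p = 2.64e-08) and -1.70 in hemizygous tumors (adjusted p = 2.66e-07), and 0.39 between hemizygous and homozygous tumors (adjusted p = 0.242). All 4 homozygous tumor values of this probe set were below the 40th percentile. The remaining Prph probe sets did not exceed 26.7 on any array.

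The neurofilament light chain stayed high in both kinds of tumor. Nefl, the subunit on which the other neurofilament proteins assemble, read 2301, 1874, 5310 and 5293 in wild-type ganglia, 2750 and 2610 in homozygous ganglia and 2878, 2813, 3259 and 2904 in homozygous tumors. Knockout tumors gave 2662 and 2938, hemizygous tumors 2299, 2207, 1818 and 1258, and tumorspheres 1627 and 1640. Neurospheres stood far below with 85.6 and 89.4. Within the wild-type ganglia the pair 3 and 4 was above every other array, and the pair 1 and 2 lay below all homozygous tumors.

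Hence the sign of the Nefl difference in homozygous tumors depended on which ganglia were used. It was -0.17 with all 4 (interval -0.75 to 0.42, adjusted p = 0.642), 0.51 with ganglia 1 and 2 alone (adjusted p = 0.047) and -0.84 with 3 and 4 alone (adjusted p = 0.00183). Without the arrays with Acta1 over 100 it was -0.81 (adjusted p = 0.0133). Hemizygous tumors were lower by the same test (log2 -0.84, SE 0.28, adjusted p = 0.0164), but not with ganglia 1 and 2 alone (-0.17, adjusted p = 0.517), after quantile normalization (-0.25, adjusted p = 0.38), in a fit of the compared arrays alone (-0.84, adjusted p = 0.0908), or without wild-type ganglion 3 (-0.62, 0.0683), wild-type ganglion 4 (-0.62, 0.0678) or hemizygous tumor 4 (-0.66, 0.065). A second Nefl probe set varied less among the wild-type ganglia, at 2456, 2376, 3009 and 3068. It gave 0.12 for homozygous (adjusted p = 0.611) and -0.47 for hemizygous tumors (adjusted p = 0.0371).

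The medium subunit rose in the tumors. Nefm read 643, 358, 776 and 996 in wild-type ganglia, 1091 and 1083 in homozygous ganglia, and 2589, 1927, 3087 and 2597 in homozygous tumors. It was 2113 and 2363 in knockout tumors, 1877, 2218, 1699 and 726 in hemizygous tumors, 29.8 and 55.5 in neurospheres, and 1170 and 1133 in tumorspheres. All homozygous tumors were above all ganglia, while hemizygous tumor 4 fell within the range of the wild-type ganglia. Against wild-type ganglia the change was 1.93 in homozygous tumors (SE 0.31, adjusted p = 5.46e-05), with means of 2550 ± 476 against 693 ± 267 (SD, n = 4 each), or 3.68-fold. In hemizygous tumors it was 1.19 (SE 0.31, adjusted p = 0.0035), but 0.77 with ganglia 3 and 4 alone (adjusted p = 0.0539) and 0.71 without the arrays with Acta1 over 100 (adjusted p = 0.131). Homozygous tumors were also above homozygous ganglia (log2 1.20, adjusted p = 0.0319). That call was lost with the replicate number as a block (1.15, adjusted p = 0.0805), with a pseudocount of 1 (1.21, adjusted p = 0.0603), without the arrays with Acta1 over 100 (1.32, adjusted p = 0.0884), and without homozygous ganglion 1 (1.20, 0.145), homozygous ganglion 2 (1.19, 0.181), or homozygous tumor 1 (1.18, 0.0578), 3 (1.10, 0.0775) or 4 (1.18, 0.0611). Nefl and Nefm are neighbours on mouse chromosome 14 in the RefSeq gene table, with 1 annotated pseudogene between them.

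The heavy subunit, which carries the long phosphorylated tail that spaces axonal filaments, was higher in hemizygous than in homozygous tumors. Nefh read 349, 263, 345 and 233 in wild-type ganglia, 179 and 215 in homozygous ganglia, 263, 318, 256 and 340 in homozygous tumors, and 509 and 312 in knockout tumors. All 4 hemizygous tumors, at 529, 475, 533 and 419, and both tumorspheres, at 473 and 486, exceeded every wild-type ganglion and homozygous tumor. In neurospheres it was 5.10 and 0.781, below the 40th percentile of those arrays. The change was 0.70 against wild-type ganglia (SE 0.18, adjusted p = 0.00304) and 0.70 against homozygous tumors (SE 0.18, adjusted p = 0.0266), with means of 489 ± 53.8 and 294 ± 41.1 in the tumors (SD, n = 4 each). The latter call was lost in 5 of 8 fits without 1 tumor, namely homozygous tumor 1 (log2 0.66, adjusted p = 0.0893), 2 (0.74, 0.0503) or 3 (0.64, 0.0857) and hemizygous tumor 1 (0.67, 0.0688) or 3 (0.66, 0.0653). It was lost as well with a pseudocount of 1 (0.73, adjusted p = 0.185) and without the arrays with Acta1 over 100 (0.70, adjusted p = 0.0643). The call against wild-type ganglia was lost with a pseudocount of 1 (0.73, adjusted p = 0.0502). Homozygous tumors and wild-type ganglia did not differ beyond the spread (log2 -0.00, interval -0.38 to 0.37).

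Alpha-internexin, a neuronal filament protein that can assemble on its own, rose in both kinds of tumor. Ina read 519, 326, 324 and 251 in wild-type ganglia, 543 and 557 in homozygous ganglia, 896, 674, 679 and 662 in homozygous tumors, and 795 and 788 in knockout tumors. Hemizygous tumors gave 556, 534, 634 and 638, tumorspheres 795 and 839, and neurospheres 44.1 and 25.9. No tumor overlapped the wild-type ganglia, and the homozygous ganglia also lay above them. Against wild-type ganglia the change was 1.04 in homozygous (SE 0.19, adjusted p = 0.000168) and 0.75 in hemizygous tumors (SE 0.19, adjusted p = 0.00251). For homozygous ganglia it was 0.66 and did not pass (interval 0.17 to 1.14, adjusted p = 0.11), although it passed with wild-type ganglia 3 and 4 alone (0.91, adjusted p = 0.00342) and without wild-type ganglion 1 (0.85, adjusted p = 0.0158). Both other Ina probe sets rose in both kinds of tumor too, by 0.88 and 1.42 in homozygous tumors (adjusted p = 0.00211 and 2.69e-06) and 0.70 and 1.25 in hemizygous tumors (adjusted p = 0.0102 and 1.07e-05).

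Vimentin, the filament of progenitors, glia, fibroblasts, endothelium and white blood cells, fell in both kinds of tumor and was lowest in tumorspheres. Vim read 2622, 2620, 3466 and 2506 in wild-type ganglia and 2755 and 2678 in homozygous ganglia. Homozygous tumors gave 1159, 939, 503 and 600, knockout tumors 835 and 1356, and hemizygous tumors 828, 698, 999 and 1678. Neurospheres had the highest values, 4503 and 3586, and tumorspheres the lowest, 323 and 255. Tumors of all genotypes overlapped each other and lay between the ganglia and the tumorspheres.

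Vim fell by 1.85 in homozygous tumors (SE 0.27, adjusted p = 1.97e-05) and by 1.47 in hemizygous tumors (SE 0.27, adjusted p = 0.000176) against wild-type ganglia. Mean intensities were 800 ± 304 and 1051 ± 436 against 2803 ± 445 (SD, n = 4 each). Tumorspheres were lower still than hemizygous tumors (log2 -1.73, SE 0.33, adjusted p = 0.00189). The other 2 Vim probe sets fell in the same comparisons, with changes of -1.95 and -1.80 for homozygous tumors, -1.41 and -1.30 for hemizygous tumors, and -1.89 and -1.73 for tumorspheres against hemizygous tumors. Neurospheres were not past the threshold against wild-type ganglia with the brightest probe set (log2 0.53, interval -0.17 to 1.23, adjusted p = 0.226), but they were with the other 2 (0.99 and 1.10, adjusted p = 0.0366 and 0.0102).

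Fibroblast and glial markers were lower in tumors than in wild-type ganglia, as Vim was, and macrophage and endothelial markers did not fall in hemizygous tumors. Summed fibroblast markers (7 genes) were 14970 to 17790 in wild-type ganglia, 3989 to 4796 in homozygous tumors, 2296 to 6178 in hemizygous tumors and 45.1 and 75.0 in tumorspheres. Among hemizygous tumors 1 to 4, Vim did not follow this sum. The sums were 6178, 4314, 2296 and 4962, beside Vim of 828, 698, 999 and 1678. Summed Schwann and satellite glia markers (6 genes) were 9934 to 11140 in wild-type ganglia, 698 to 945 in homozygous tumors and 413 to 880 in hemizygous tumors, and all 6 fell in both kinds of tumor. In tumorspheres 1090 and 1234 were reached with 2 of the 6 glial genes above the 40th percentile, mostly from Pmp22, a myelin protein, at 1112. Summed macrophage markers (6 genes) were 769 to 1654 in wild-type ganglia, 1694 to 2478 in homozygous tumors, 1727 to 4355 in hemizygous tumors and 33.1 and 51.5 in tumorspheres. Against wild-type ganglia 3 of the 6 rose in homozygous and 4 in hemizygous tumors, and none fell. Of 6 endothelial markers 3 fell in homozygous tumors and 2 rose in hemizygous tumors. Of all genes tested, 49.9% were called in homozygous tumors (23.2% higher, 26.7% lower) and 52.7% in hemizygous tumors (27% higher, 25.7% lower). The marker counts were not tested against these shares. Summed endothelial markers were 190 to 391 in wild-type ganglia, 105 to 129 in homozygous and 253 to 396 in hemizygous tumors. None of the 6 was above the 40th percentile in tumorspheres. In neurospheres, by contrast, Vim was at its highest with summed fibroblast markers of 560 and 1627 and with macrophage markers of 55.2 and 97.2. Summed Schwann and satellite glia markers were 5525 and 9279 in neurospheres, with 5 of the 6 genes above the 40th percentile. Against wild-type ganglia, however, 4 of these 6 genes fell and 0 rose there (median log2 -2.03, all genes -0.115). Of all genes, 39.2% were called in that comparison. The 6 neural progenitor markers summed to 6981 and 9296 there, against 903 to 1428 in wild-type ganglia. The part of these cells in the Vim values was not tested.

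**Figure D2:**
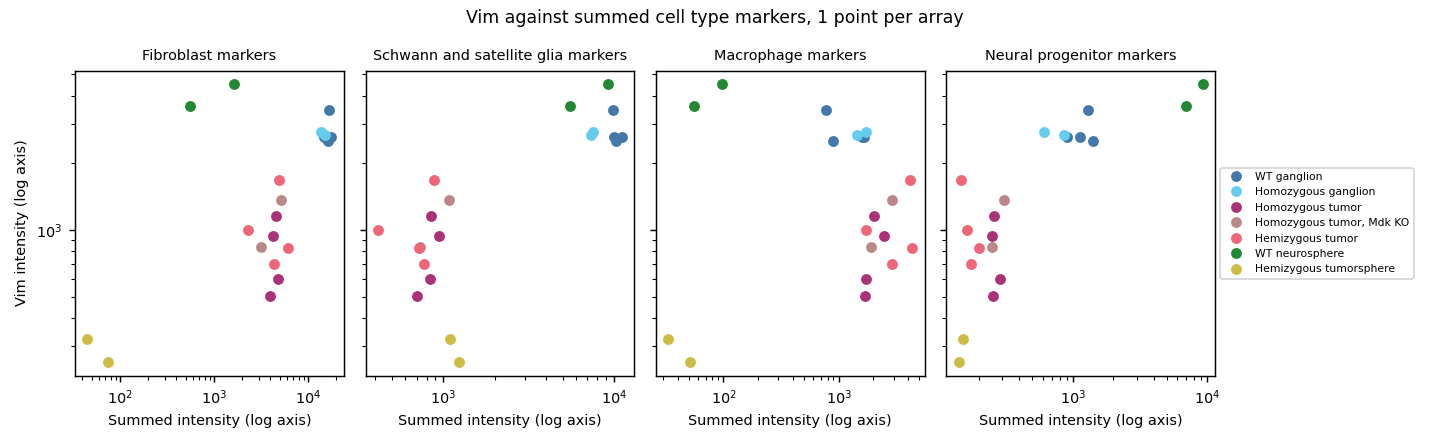
Vim intensity against the summed intensity of fibroblast, Schwann and satellite glia, macrophage and neural progenitor markers (both axes log), 1 point per array, coloured by group. The tumorspheres have the lowest Vim (255 and 323) with near-absent fibroblast and macrophage markers, and the neurospheres the highest (3586 and 4503) with the highest progenitor markers.

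Nestin, the classical filament of neural stem cells, was dim, and its probe sets disagreed. The brightest Nes probe set read 44.5, 64.4, 41.4 and 43.3 in wild-type ganglia, 62.3 and 48.6 in homozygous ganglia, 27.5, 32.2, 32.5 and 23.3 in homozygous tumors, 35.7 and 54.8 in knockout tumors, 41.8, 48.9, 42.7 and 41.4 in hemizygous tumors, 58.1 and 51.0 in neurospheres and 30.5 and 41.6 in tumorspheres. Homozygous tumors were below all ganglia, by 0.51 on the log2 scale against wild-type ganglia (adjusted p = 0.0107), but not past the threshold with ganglia 3 and 4 alone (-0.38, adjusted p = 0.0664), without the arrays with Acta1 over 100 (-0.42, adjusted p = 0.0767) or with the mean of all Nes probe sets (-0.24, adjusted p = 0.0816). Against homozygous ganglia it fell by 0.67 (adjusted p = 0.0186), a call lost after quantile normalization (-0.52, adjusted p = 0.0616), with the replicate block (-0.60, 0.0558), and without homozygous ganglion 1 (-0.53, 0.197), homozygous ganglion 2 (-0.81, 0.068) or homozygous tumor 4 (-0.61, 0.0513). A second Nes probe set read 104 and 134 in neurospheres, 7.01, 11.4, 8.68 and 4.33 in wild-type ganglia, 19 and 33.6 in homozygous ganglia and 10.1 and 3.50 in tumorspheres. By that probe set Nes was higher in neurospheres than in wild-type ganglia (log2 2.50, SE 0.27, adjusted p = 7.46e-07), where the brightest one gave 0.14 (interval -0.26 to 0.55, adjusted p = 0.589). The tumors did not overlap on it either, with 2.63 to 4.92 in homozygous and 27.9, 37.4, 32.9 and 11.2 in hemizygous ones (log2 1.06, adjusted p = 0.00792), against 0.42 for the brightest (adjusted p = 0.127). The third stayed at 11.3 or below.

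Gfap was near the background in all groups. Its brightest probe set ranged from 3.85 to 29.4 over the 20 arrays, 13 of them above the 40th percentile, and none of the 9 contrasts between groups or the contrast of contrasts passed. Neurosphere 1 had the highest value, 29.4, and neurosphere 2 read 4.36. Another Gfap probe set gave 23.9 in neurosphere 1, its only value above the 40th percentile, and 0.507 in neurosphere 2. Of 6 other astrocyte markers, 5 were above the 40th percentile in both cultures, with a sum of 3123 and 3598 against 112 to 328 in wild-type ganglia. Of the 5 tested, 4 rose and 1 fell, beside 39.2% of all genes called. The marker lists overlap: Slc1a3 is also among the neural progenitor markers and S100b among the Schwann and satellite glia markers.

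**Figure D3:**
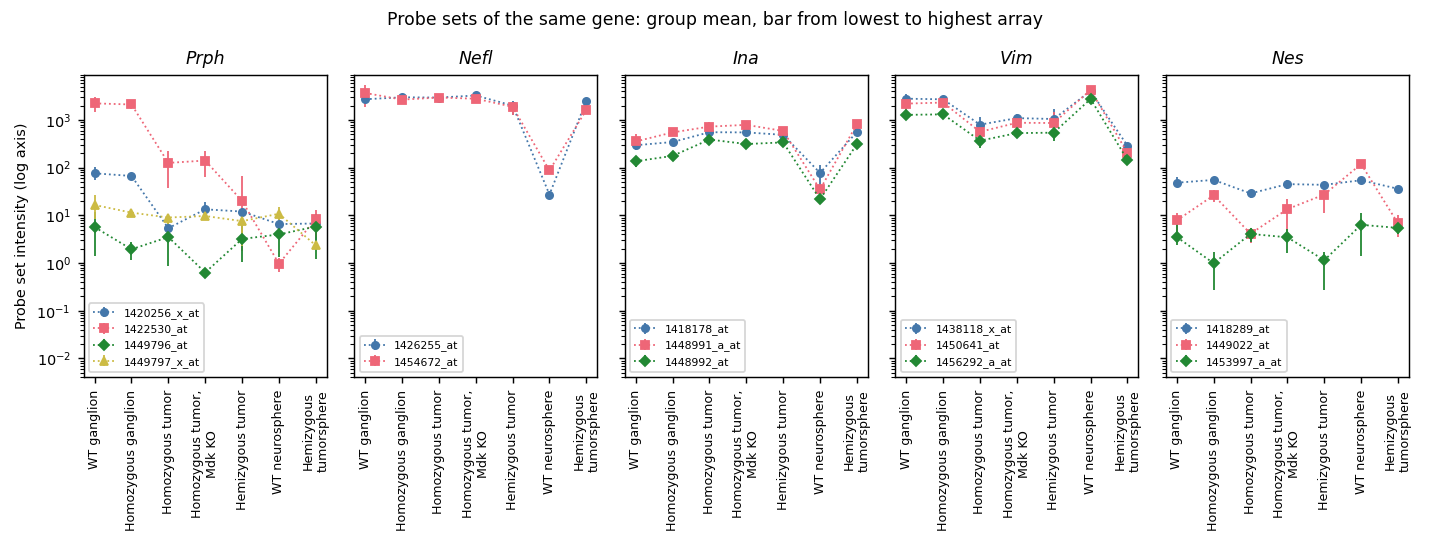
Group means of every probe set of Prph, Nefl, Ina, Vim and Nes (log axis), with bars from the lowest to the highest array of the group. The probe sets of Nefl, Ina and Vim run in parallel, while those of Nes do not: 1 of them rises to 104 and 134 in neurospheres and the brightest reads 58.1 and 51.0 there.

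Counted over the members, homozygous tumors differed from wild-type ganglia in 5 of 8, of which 2 (Nefm, Ina) were higher and 3 (Prph, Vim, Nes) lower. Of all genes tested, 49.9% differed, 23.2% higher and 26.7% lower. The median member change was -0.08 and that of all genes -0.12. For hemizygous tumors 6 of 8 changed, 3 higher (Nefm, Nefh, Ina) and 3 lower (Prph, Nefl, Vim), against 52.7% of all genes, 27% higher and 25.7% lower, with medians of 0.01 for the members and -0.05 for all genes. Both counts use the same wild-type arrays. Homozygous tumors against homozygous ganglia gave 4 of 8, with Nefm higher and Prph, Vim and Nes lower, against 21.7% of all genes, 9.37% higher and 12.3% lower. Here the median was 0.08 for the members and -0.03 for all genes. With the replicate block or without homozygous ganglion 1, homozygous ganglion 2 or homozygous tumor 4, 2 were past the threshold. Hemizygous against homozygous tumors gave 2 of 8 (Prph lower, Nefh higher), against 6.25% of all genes, 3.5% higher and 2.75% lower (medians -0.17 and 0.06). Over all genes the split was 530 higher and 416 lower, and 387 and 569 after quantile normalization. The count of members was 0 without the arrays with Acta1 over 100 and 4 in a fit of the compared arrays alone.

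No member was called between homozygous and wild-type ganglia, which differ in transgene and background, or between knockout and homozygous tumors. Between homozygous and wild-type ganglia limma called 0 of 8 (5.09% of all genes, 4.02% higher and 1.06% lower), and 2 had an unadjusted p under 0.05, Nefh (log2 -0.54) and Ina (log2 0.66). With wild-type ganglia 3 and 4 alone, where 35.1% of all genes were called, 2 of 8 members were, Nefl (-0.98, adjusted p = 0.00353) and Ina (0.91, adjusted p = 0.00342). Between knockout and homozygous tumors limma called 0 of 8 (0.00661% of all genes, 1 gene, which was lower), and 1 had an unadjusted p under 0.05, Nes (log2 0.44, interval 0.03 to 0.84). The intervals of the members there were wide, from -1.09 to 1.47 for Prph and -0.22 to 1.18 for Vim, and differences within them are not excluded by 2 knockout arrays.

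**Figure D4:**
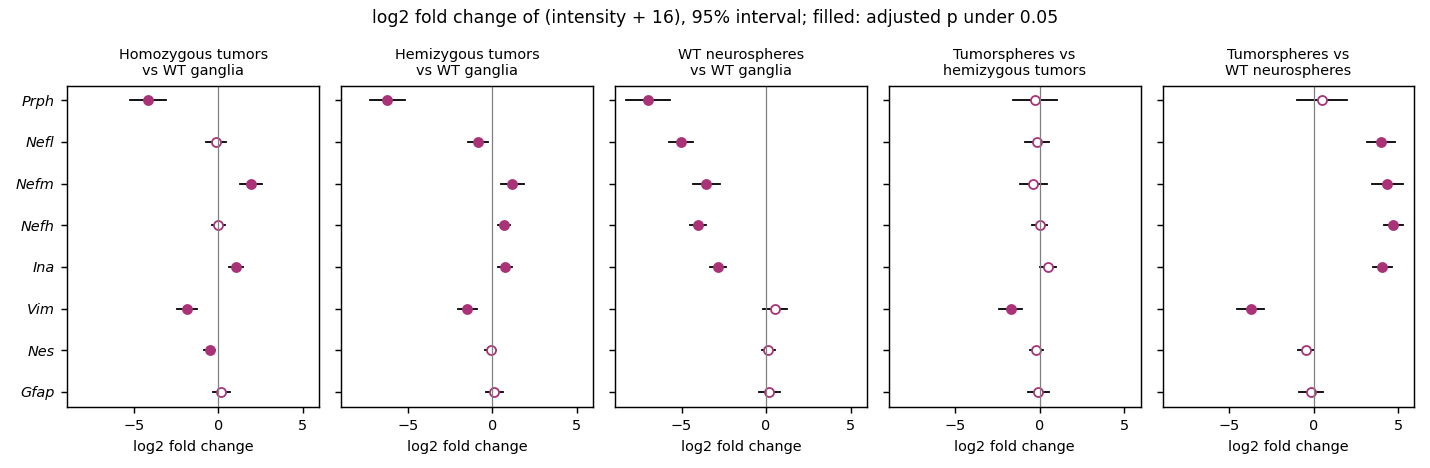
log2 fold changes of (intensity + 16) of the 8 genes in 5 comparisons, with 95% intervals from the limma fit and filled points where the adjusted p was under 0.05. Nefm and Ina are above 0 and Prph and Vim below 0 in both tumor comparisons, and the neurofilament genes and Ina change by 2.84 to 5.01 downward in neurospheres against ganglia.

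All 5 neuronal members fell in wild-type neurospheres. Against wild-type ganglia 5 of 8 members fell and none rose, while 39.2% of all genes changed, 16.8% higher and 22.4% lower. The median was -3.19 for the members and -0.11 for all genes, of which 2546 were higher and 3391 lower, or 3250 and 2663 after quantile normalization. The changes were -6.99 for Prph (adjusted p = 4.9e-08), -5.01 for Nefl (2.27e-09), -3.54 for Nefm (7.36e-07), -4.04 for Nefh (1.42e-10) and -2.84 for Ina (2.04e-08), all adjusted p. Both neurosphere values of Prph and of Nefh were below the 40th percentile, so the sizes of these 2 changes are set by the processing. Over the alternatives they ran from -10.1 to -2.34 for Prph and from -6.48 to -2.42 for Nefh, and both were called in each. The -2.34 came with the mean of all Prph probe sets, dim ones included. The summed sympathetic markers (8 genes) were 58.7 and 83.0 in neurospheres against 13280 to 28150 in the ganglia, and summed neuron markers (10 genes) 2503 and 3730 against 12140 to 24180. The GAPDH 3' to 5' ratio was 3.37 and 11.5 in these 2 cultures, and its part was not tested. The 5 calls were also made without neurosphere 1 or 2.

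In tumorspheres the neurofilament genes and Ina lay at levels that did not differ from hemizygous tumors beyond the spread. Against those tumors 1 of 8 members changed, which was Vim, while 12.6% of all genes did, 5.59% higher and 6.99% lower. Over all genes 846 were higher and 1058 lower, or 1133 and 828 after median centring, and the medians were -0.19 for the members and 0.01 for all genes. The intervals of the others ran from -0.89 to 0.54 for Nefl, -1.19 to 0.42 for Nefm, -0.48 to 0.44 for Nefh and -0.02 to 0.95 for Ina. Compared with wild-type neurospheres 5 of 8 changed (38.4% of all genes, 23.5% higher and 14.9% lower), with Nefl (log2 3.99), Nefm (4.35), Nefh (4.72) and Ina (4.05) higher and Vim (-3.73) lower. Since Nefh was below the 40th percentile in neurospheres, the size of its difference depends on the pseudocount, from 3.02 with 64 to 7.19 with 1. The adjusted p values were 3.56e-07, 4.92e-07, 1.87e-10, 2.49e-09 and 6.07e-07 in that order. Prph was near or below the 40th percentile in both kinds of culture (log2 0.49, interval -0.98 to 1.97, adjusted p = 0.632). The summed neuron markers were 8394 and 8430 in tumorspheres, above the 4600 to 5463 of hemizygous tumors. Of these 10 genes 2 rose and 0 fell against those tumors (median log2 0.72, all genes 0.01), beside 12.6% of all genes called.

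Whether the hemizygous cultures differ from wild-type cultures as hemizygous tumors differ from ganglia was tested as a contrast of contrasts. The same contrast is the difference of tumorspheres from hemizygous tumors minus that of neurospheres from wild-type ganglia. It passed for 6 of 8 members (32.5% of all genes, 17.8% upward and 14.7% downward), and the median was 3.23 for the members and 0.13 for all genes. Nefl (4.84, SE 0.48, adjusted p = 5.81e-07), Nefh (4.02, SE 0.31, 2.99e-08), Ina (3.30, SE 0.33, 5.32e-07) and Nefm (3.16, SE 0.54, 0.000198) differed more upward in culture. Vim differed more downward (-2.26, SE 0.47, adjusted p = 0.00116). For Nefl, Nefh, Ina and Nefm the contrast largely repeats the falls in neurospheres against ganglia on the same arrays (-5.01, -4.04, -2.84 and -3.54). Their differences between tumorspheres and hemizygous tumors were small beside these (-0.17, -0.02, 0.46 and -0.38). The Prph value (6.70, SE 0.86, adjusted p = 1.04e-05) stands beside a fall of 6.21 in tissue and beside culture values of which 3 of 4 were below the 40th percentile. Over the alternatives it ran from 2.15 to 9.84, and that of Nefh from 2.40 to 6.46. The 2.15 came with the mean of all Prph probe sets. With the tissue behind the neurospheres not given, genotype and origin of the cultures cannot be told apart in this contrast.

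**Figure D5:**
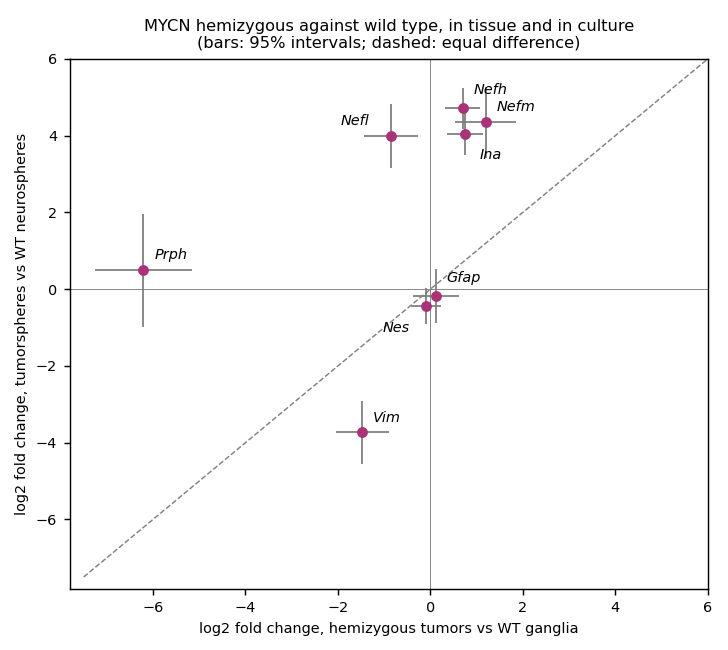
log2 fold change of hemizygous tumors against wild-type ganglia (horizontal) and of tumorspheres against wild-type neurospheres (vertical) for the 8 genes, with 95% intervals and a dashed line of equal difference. Nefl, Nefm, Nefh and Ina lie 3.16 to 4.84 above the line, Prph 6.70 above it and Vim 2.26 below it.

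Of 12 other intermediate filament genes 11 were tested, and the B-type nuclear lamins rose in both kinds of tumor. Against wild-type ganglia 2 rose and 5 fell in homozygous tumors (median -0.55, all genes -0.12), where 49.9% of all genes were called. Lmnb2 and Lmnb1, the B-type lamins of the nuclear envelope, rose by 2.50 and 2.04 (adjusted p = 5.12e-08 and 4.16e-08), and syncoilin (Sync) and synemin (Synm), partners of desmin and vimentin, fell by 1.36 and 1.32 (adjusted p = 3.32e-06 and 5.54e-05). In hemizygous tumors, where 52.7% of all genes were called, 3 rose and 3 fell (median 0.01, all genes -0.05), with the same 4 genes at 2.94, 1.89, -1.40 and -1.38. Lmnb1 and Lmnb2 had also risen in homozygous ganglia (1.14 and 1.52, adjusted p = 0.00301 and 0.00171), the only calls among 11. Whether these calls hold with each pair of wild-type ganglia was not examined. Lmna, the A-type lamin, was the 1 gene of the list called between hemizygous and homozygous tumors (log2 1.505, adjusted p = 0.00239), with 153 to 445 against 76.8 to 110. It was highest in tumorspheres, at 563 and 578, and 74.3 and 75.0 in neurospheres (log2 2.69, adjusted p = 1.59e-05).

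Of 12 genes for filament crosslinkers, turnover and transport, 11 were measured and tested. In homozygous tumors 4 rose and 4 fell against wild-type ganglia (median -0.15, all genes -0.12), and in hemizygous tumors 2 rose and 4 fell (median -0.20, all genes -0.05), beside 49.9% and 52.7% of all genes called. Kif5a, a kinesin that carries neurofilaments along axons, fell by 1.13 and 1.77 (adjusted p = 0.00221 and 2.72e-05). Cdk5r1, the activator of the kinase Cdk5 that phosphorylates neurofilaments, rose by 1.35 and 1.41 (adjusted p = 9.94e-06 and 4.73e-06). Trim2, a ubiquitin ligase for the light neurofilament chain, fell by 1.66 in hemizygous tumors (adjusted p = 4.35e-06). Kif5a was 14.1 in neurospheres and 781 in tumorspheres on average (log2 4.73, adjusted p = 3.79e-08), and Plec, the crosslinker plectin, 27.9 and 338 (log2 3.19, adjusted p = 4.82e-07). In that comparison 5 of the 11 rose and 2 fell (median 0.14, all genes 0.11), and 38.4% of all genes were called.

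The genes most like each member over the 20 arrays, which fall into 7 groups and share their arrays, are given as a description. For Prph these were Sncg, Lama2 and Avil, with Pearson r of 0.982, 0.969 and 0.968. For Nefl they were Slc7a14, Hand2 and Ddc (0.977, 0.976 and 0.975), for Nefm Rian, Eml5 and Arhgef15 (0.973, 0.965 and 0.954), and for Nefh Pgbd5, Tfap2b and Fam155a (0.963, 0.953 and 0.947). Ina was closest to Tfap2b (0.977), Plcb4 (0.966) and Rundc3b (0.953). Vim was closest to Wwtr1 (0.956) and Yap1 (0.937), coactivators of the Hippo pathway, and to Smpdl3a (0.931). Among the members, Nefm, Nefh and Ina correlated with each other at 0.85 to 0.92 and with Nefl at 0.80 to 0.85. Prph correlated with Nefm, Nefh and Ina at 0.10 to 0.14, with Nefl at 0.52 and with Vim at 0.49. Vim was at -0.60 to -0.65 with Nefm, Nefh and Ina and at -0.32 with Nefl. For the dim members the likeness was lower, with Kcp for Nes at 0.804 and Zfpm2 for Gfap at 0.696.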

How the data were processed

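RNA of 20 mouse samples in 7 groups, taken from the titles, was amplified in a pair of cycles from 40 ng of total RNA, per the labels' protocols. What the authors deposited is 1 linear intensity per probe set and array, with a mean of 100 on every array once 2% was trimmed at each end. Which software summarized the probes: not given in the sources used here. Detection calls were not part of the analysis. Intensities were transformed to log2(intensity + 16) and not normalized again. Of 45037 probe sets without 64 controls, 34945 had 1 symbol, 932 several and 9160 none, and 34741 symbols were updated through the GRCm38.p6 gene table. Genes (18193) were represented by the probe set of highest mean, and 15139 above the 40th percentile on at least 2 arrays were tested.

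One model with 7 group means was fitted to all arrays with limma 3.58.1 under R 4.3.3 (lmFit, then eBayes), which left 13 residual degrees of freedom. Tests were two-sided, and p-values were adjusted by Benjamini and Hochberg's method within each contrast. The model assumes equal spread in all groups. The code was tested on simulated arrays. Named genes are the 8 members, the 3 genes most correlated with each, without clone names, and up to 4 called genes per comparison from each of the 2 lists of other filaments and filament partners. Members and lists were chosen with earlier results of these data known. The highest correlation between a pair of arrays was 0.99 and identical intensities were at most 0.00222%, so no array is a copy of another. Every array was counted as a sample of its own. This check cannot tell repeats of 1 RNA from separate animals or cultures. Alternatives were normalization, pseudocount, filter, arrays in the fit, probe set choice, an intensity trend, a replicate block, pairs of wild-type ganglia, arrays with muscle RNA, and leaving out each array.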

Additional observations from a re-analysis of the deposited data

Results flagged for a closer look

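In 48 groups of 4 arrays, from 16 probe sets in 3 groups, 4 held an array far from the others, and chance alone gives about 1 in 20. These were Prph in hemizygous tumor 2 (66, the others 1.78 to 8.88), Ina in homozygous tumor 1 (896, the others 662 to 679), Vim in wild-type ganglion 3 (3466, or 3470 to 3 digits, the others 2506 to 2622) and Nes in wild-type ganglion 2 (64.4, the others 41.4 to 44.5).

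The difference between hemizygous and wild-type samples itself differed between culture and tissue for 6 genes in limma's contrast of contrasts: Prph (log2 6.70), Nefl (4.84), Nefm (3.16), Nefh (4.02), Ina (3.30) and Vim (-2.26), with adjusted p between 2.99e-08 and 0.00116. For the neuronal genes this largely repeats their fall in neurospheres against ganglia, on the same arrays, and is not a separate result. Prph did not differ between tumorspheres and neurospheres beyond the spread (log2 0.49, adjusted p = 0.632 in limma). In each of the 12 fits that left out 1 array, and with either pair of wild-type ganglia, the count stayed at 6.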

How the results depend on the processing

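Over the settings tried, the count of called members stayed within 1.5 times of the reported one in 184 of 200 cases. For hemizygous against homozygous tumors, 2 as reported, it was 1 with a pseudocount of 1, 1 with a pseudocount of 64, 4 with only the arrays compared and 0 without arrays with Acta1 over 100, and 0 to 2 without 1 array. For homozygous tumors against homozygous ganglia, 4 as reported, the replicate block gave 2, and fits without 1 array gave 2 to 4. For homozygous against wild-type ganglia, 0 as reported, ganglia 3 and 4 alone gave 2, and fits without 1 array gave 0 to 1. Among single genes, Nefl in homozygous tumors against wild-type ganglia turned to 0.51 with ganglia 1 and 2 alone. The replicate numbers did not pair the samples: same-numbered arrays of different groups correlated in their deviations at -0.32 to 0.28 over 48 pairs, and 8 pairs exceeded 0.1. The block changed no other count of members by over 1.5 times. Counts over all genes moved by more: with only the arrays compared, 13.0% against 6.25% for hemizygous against homozygous tumors, 41.7% against 21.7% for homozygous tumors against homozygous ganglia, 0.918% against 5.09% for homozygous against wild-type ganglia and 18.6% against 39.2% for neurospheres against ganglia. Homozygous against wild-type ganglia gave 35.1% with wild-type ganglia 3 and 4 alone, 20.6% without arrays with Acta1 over 100, 1.25% without homozygous ganglion 1 and 2.87% with the replicate block. Hemizygous against homozygous tumors gave 3.78% with a pseudocount of 1 and 2.97% without homozygous tumor 1. Quantile normalization moved the median of all genes from -0.11 to 0.07 for neurospheres against ganglia. The cause was not tested. Values near or below the 40th percentile have no order, which limits Prph in hemizygous tumors and cultures, Nefh in neurospheres, the dimmer Nes probe sets and Gfap.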

Other observations

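Bfsp1, a filament gene best known from the eye lens, varied widely within hemizygous tumors and tumorspheres. It ranged from 4.70 to 413 in hemizygous tumors and from 12.2 to 255 in tumorspheres, and was 0.494 to 2.98 in wild-type ganglia. It was singled out after its values were seen, and its change in hemizygous tumors did not pass (log2 1.59, adjusted p = 0.0759).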
